A study of Mus musculus with 12 samples.

Results

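The E2F and retinoblastoma families are the transcription factors and pocket proteins that govern entry into S phase. E2F1, E2F2 and E2F3 are the activator E2Fs, which drive genes for DNA replication and nucleotide synthesis. E2F4 and E2F6 are repressors, E2F4 acting with pocket proteins and E2F6 with Polycomb proteins, and E2F7 and E2F8 are atypical E2Fs, which bind DNA without a DP partner and shut down E2F targets later in the cycle. RB1, RBL1 (p107) and RBL2 (p130) are the pocket proteins, which hold E2Fs in check until cyclin-dependent kinases phosphorylate them. In T cells, this switch opens when an activated cell leaves quiescence to divide. The 10 genes described here (E2f1, E2f2, E2f3, E2f4, E2f6, E2f7, E2f8, Rb1, Rbl1 and Rbl2) were chosen by symbol, out of 54532 genes measured. Earlier results of these data were known when the genes were chosen.

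RNA-seq was performed on mouse primary CD8+ T cells, which were isolated, activated and given either a non-targeting control siRNA (siNTC, genotype WT) or an siRNA against Creb1 (siCreb1, genotype Creb1 KD). Cells were then cultured for 24 h with TVA (trans-vaccenic acid, a dietary trans fatty acid, 20 μM per the study's methods) or with DMSO, the vehicle. The 4 groups, siNTC, siNTC plus TVA, siCreb1 and siCreb1 plus TVA, had 3 libraries each. CREB, the product of Creb1, is the transcription factor that responds to cAMP, and the siRNA design asks which responses to TVA need it. The siRNA lowers the target transiently in a bulk population that was already activated, and all 4 groups shared the activation and the siRNA delivery. Neither the labels nor the methods say whether the 3 libraries of a group came from separate mice, so p-values measure the spread between these libraries, which may be technical. In bulk RNA, fewer cells in cycle and less RNA per cell cannot be told apart.

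Creb1 was at 10.3 to 12.4 FPKM (fragments scaled by gene length and library size) in the 6 siNTC libraries and at 1.17 to 1.81 FPKM in the 6 siCreb1 libraries, which matched the labels. The recovered depth was 16660234 to 24602484 reads per library. All 7 CD8+ T cell markers examined (Cd8a, Cd8b1, Cd3d, Cd3e, Cd3g, Cd2 and Lck) were expressed. Their summed level was 2273 to 2303 FPKM in the siNTC groups and 2156 to 2190 FPKM in the siCreb1 groups, against at most 1.75 FPKM for Cd4. Sums of B cell markers (4 genes) and natural killer cell markers (2 genes) ran from 9.45 to 14.2 FPKM and from 3.83 to 5.24 FPKM. In siNTC cells both sums overlapped with and without TVA. In siCreb1 cells both were higher with TVA. The B cell sums were 10.2 to 11.3 FPKM without TVA and 11.8 to 12.8 FPKM with it. Those of natural killer cell markers were 3.83 to 4.27 FPKM and 4.76 to 5.07 FPKM. Hbb-bs, an adult globin, was at 0 throughout, and both erythroid markers summed to at most 0.424 FPKM. Myeloid markers (5 genes) summed to 10.7 to 12.2 FPKM in siCreb1 plus TVA cells and 7.96 to 8.24 FPKM in siNTC plus TVA cells. Without TVA they summed to 8.4 to 10.5 FPKM in siCreb1 cells and 8.5 to 9.4 FPKM in siNTC cells. Of the CD8+ T cell markers, 4 were called lower and 1 higher in siCreb1 against siNTC cells without TVA. Of all genes tested, 7.21% were called lower and 6.52% higher there. With TVA, 2 of these markers were called lower and 1 higher, against 5.51% and 4.64% of all genes tested. The part of these marker differences in the results below was not tested.

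The E2F motif was searched as TTTCCCGC, TTTCGCGC, TTTGCCGC and TTTGGCGC, and all motifs on both strands. The MuvB complex, which joins E2F4 and pocket proteins at cell cycle promoters, binds the cell cycle homology region (CHR, searched as TTTGAA), and CREB binds the cAMP response element (CRE, searched as TGACGTCA). RefSeq promoter windows of GRCm38.p6, 250 bases before to 50 after a start, were found for 8 of the 10 genes, in 10 windows. E2f4 and Rb1 had none. E2F letters were in 4 of the 10 windows, against 2.26% of 32851 windows of all genes. CHR letters were in 4 of 10 against 17.9%, and CRE letters in 0 of 10 against 1.79%. A match describes the letters and not a bound site, and the absence of one says only that these letters are not in the window. The RefSeq start of E2f1 lies 466 bases inside the gene as listed, so its window does not reach the region upstream of it. CHR letters were also in the Rbl2 window, starting 201 bases before the start, and in the second E2f2 window, 31 bases before. The RefSeq start of that second window lies 8388 bases inside E2f2 as listed. The following stretches are shown because they hold the E2F matches of the family and the CHR match of E2f8, whose RNA is described below. Each is read 5′ to 3′ on the strand of its gene, with the E2F or CHR letters in capitals, and no matches overlap each other.
Rbl1, 150 bases upstream, chr2:157204535-157204684, minus strand, E2F letters starting 18 bases before the start: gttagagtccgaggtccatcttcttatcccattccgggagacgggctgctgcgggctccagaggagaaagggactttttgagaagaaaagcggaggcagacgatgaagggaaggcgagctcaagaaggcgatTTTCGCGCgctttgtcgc
E2f3, 150 bases upstream, chr13:29986064-29986213, minus strand, CHR letters starting 23 bases and E2F letters (as the reverse complement) 11 bases before the start: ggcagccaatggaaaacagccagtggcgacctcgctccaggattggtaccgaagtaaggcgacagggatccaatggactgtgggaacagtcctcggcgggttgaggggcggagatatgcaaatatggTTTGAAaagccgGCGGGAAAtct
E2f8, 150 bases upstream, chr7:48881597-48881746, minus strand, CHR letters (as the reverse complement) starting 20 bases before the start: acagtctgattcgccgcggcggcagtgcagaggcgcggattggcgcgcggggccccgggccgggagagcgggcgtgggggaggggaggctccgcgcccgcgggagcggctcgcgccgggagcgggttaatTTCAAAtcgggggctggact
E2f7, 30 bases, chr10:110745230-110745259, plus strand, E2F letters (as the reverse complement) starting 198 bases before the start: cccgcgtccccGCGGGAAAcgctcccgcgt
E2f2, 30 bases, chr4:136172294-136172323, plus strand, E2F letters starting at base 40 after the RefSeq start, which is 120 bases upstream of the gene as listed in the deposited files: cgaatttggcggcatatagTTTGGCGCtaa

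All 10 genes were expressed, and they spanned a wide range of levels per length. In siNTC cells E2f4 was highest at 49.3 ± 1.9 FPKM (SD, n = 3), followed by E2f2 at 25.0 ± 0.306, Rbl1 at 14.2 ± 0.706 and Rbl2 at 13.1 ± 0.298 FPKM. Rb1 was at 7.78 ± 0.377, E2f1 at 6.31 ± 0.793, E2f6 at 5.44 ± 0.177, E2f3 at 4.32 ± 0.368, E2f8 at 4.12 ± 0.179 and E2f7 at 1.11 ± 0.0165 FPKM. E2f1 and E2f6, and likewise E2f3 and E2f8, overlapped between neighbours in this order, and the other neighbours were separate in every library. E2f4 was first and E2f2 second in all 4 groups. Among the activators, E2f2 made up 70.2% ± 2.19 (SD, n = 3) of the summed FPKM in siNTC cells and between 71.0% and 72.3% on average in the other groups. E2f8 moved up the order with TVA, from ninth in siNTC cells to a rank above E2f6 in siNTC plus TVA cells (7.11 ± 0.53 against 5.92 ± 0.644 FPKM).

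On GRCm38, E2f1 (ENSMUSG00000027490) lies on chromosome 2 from 154559407 to 154569892, E2f2 (ENSMUSG00000018983) on chromosome 4 from 136172394 to 136196057 and E2f7 (ENSMUSG00000020185) on chromosome 10 from 110745439 to 110787384. E2f8 (ENSMUSG00000046179) lies on chromosome 7 from 48866429 to 48881596 and Rbl1 (ENSMUSG00000027641) on chromosome 2 from 157145893 to 157204534.

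**Figure D1:**
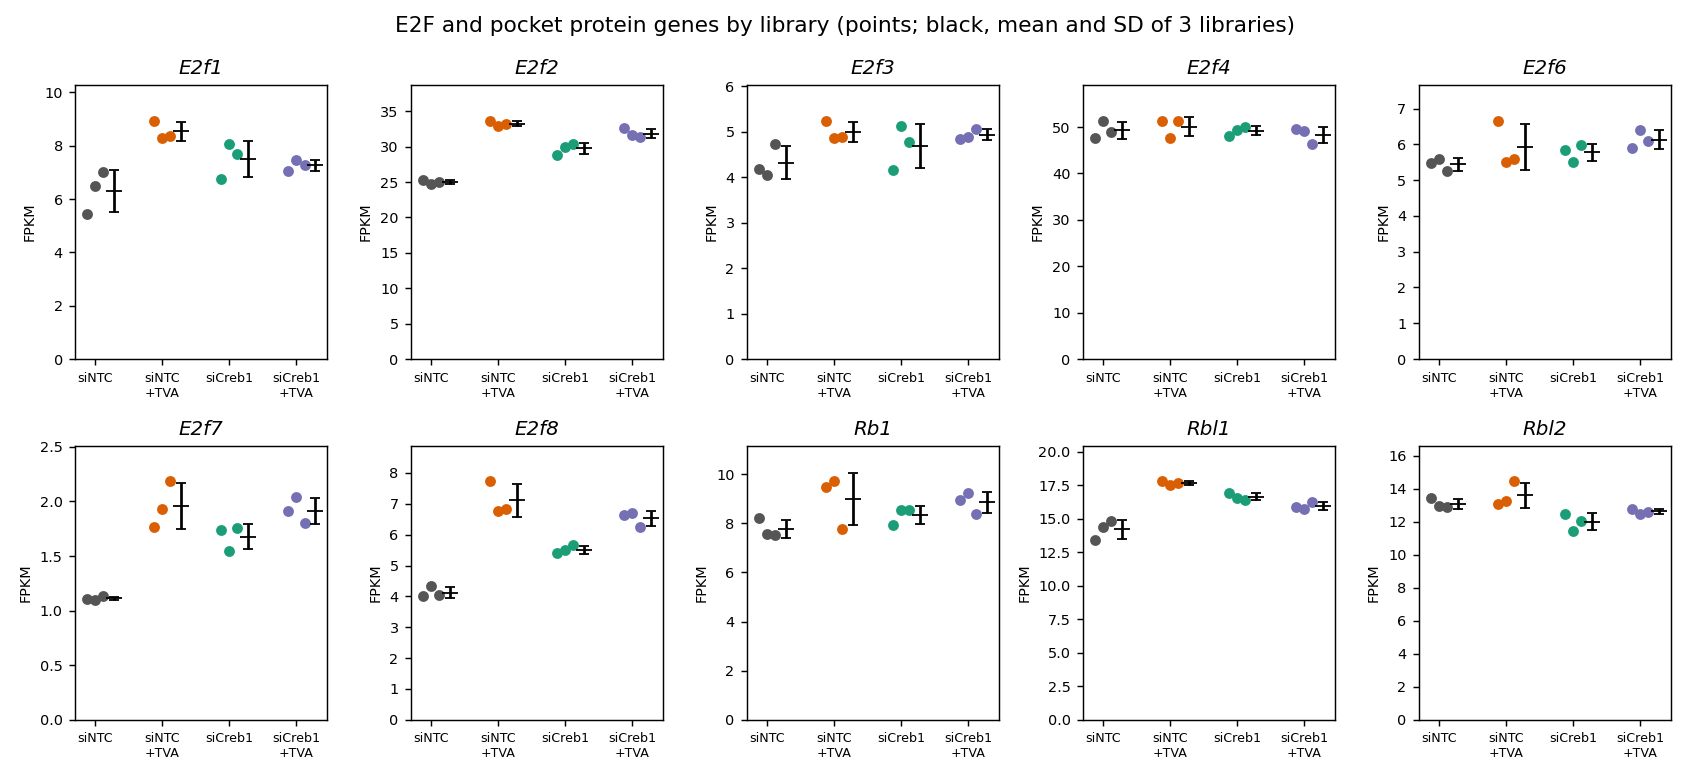
Expression of the 10 genes in each of the 12 libraries, in FPKM on a linear axis from 0, with 1 panel per gene. Points are libraries and black marks are the mean and SD of the 3 libraries of a group. In E2f2, E2f8 and Rbl1 no library overlaps another group, and in E2f4 all groups overlap.

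TVA raised 5 of the 10 genes in siNTC cells and lowered 0. The 5 were the activators E2f1 and E2f2, both atypical E2Fs and the pocket protein gene Rbl1. Differences were tested with limma on log2(FPKM + 1) over the 11550 genes with a mean of at least 1 FPKM, all 10 members included. A gene was called at a Benjamini-Hochberg adjusted p under 0.05, and 4.49% of all genes tested were called higher in this comparison. All 10 differences were above 0, with a median of 0.24 on the log2 scale, against -0.006 over all genes tested. In 6 of the 10 genes the TVA libraries lay wholly above the siNTC libraries, where 23.9% of all genes tested had no overlap in either direction.

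Of the activators, E2f2 had the tightest values. It was at 25.3, 24.7 and 25.0 FPKM in the siNTC libraries and 33.7, 32.9 and 33.3 FPKM with TVA. The lowest TVA library was thus well above the highest siNTC library. The rise was 1.33-fold (log2 difference 0.40, SE 0.03, limma adjusted p = 1.23e-05). E2f1, an activator whose own gene is an E2F target, was at 5.45, 6.49 and 7.003 FPKM without TVA and 8.94, 8.31 and 8.37 FPKM with it. The siNTC libraries were the more spread of the groups for E2f1, but none reached a TVA library, and the rise was 1.35-fold (log2 difference 0.39, SE 0.08, limma adjusted p = 0.013). When only the 6 libraries compared were fitted, E2f1 was no longer called (log2 difference 0.39, limma adjusted p = 0.0691). E2f3 was at 4.17, 4.04 and 4.73 FPKM without TVA and 5.24, 4.86 and 4.88 FPKM with TVA. These E2f3 libraries did not overlap either, but the difference of 0.17 (95% interval 0.02 to 0.33) did not pass the test (limma adjusted p = 0.175).

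The atypical E2Fs had the 2 largest rises of the family on both the fold and the log2 scale. E2f8 was at 4.00, 4.33 and 4.04 FPKM in siNTC libraries and 7.72, 6.78 and 6.84 FPKM with TVA. The groups were far apart relative to their spread, at 1.72-fold (log2 difference 0.66, SE 0.05, limma adjusted p = 3.98e-05). E2f7 was at 1.11, 1.10 and 1.13 FPKM without TVA and 1.77, 1.93 and 2.18 FPKM with it. This was the least expressed member, with 172 to 459 reads per library, and its rise was 1.76-fold (log2 difference 0.48, SE 0.07, limma adjusted p = 0.00254). The added 1 in log2(FPKM + 1) shrinks the change of such a low gene, and on recovered reads with limma-voom the E2f7 difference was 0.83 (adjusted p = 1.38e-05).

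The repressors did not pass the test. E2f4 was at 47.6, 51.4 and 48.9 FPKM without TVA and 51.4, 47.7 and 51.3 FPKM with TVA. The values interleaved, and the 95% interval of the difference was -0.06 to 0.11 on the log2 scale (limma adjusted p = 0.802). E2f6 was at 5.47, 5.59 and 5.25 FPKM without TVA and 6.66, 5.50 and 5.60 FPKM with TVA, 1 library standing above the rest (log2 difference 0.10, 95% interval -0.04 to 0.24, limma adjusted p = 0.413).

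Of the pocket proteins, Rbl1 rose, and Rb1 and Rbl2 did not pass. Rbl1 encodes p107, the pocket protein that accumulates in cycling cells and is itself under E2F control, whereas RBL2 is the pocket protein of quiescent cells. Rbl1 was at 13.4, 14.4 and 14.8 FPKM without TVA and 17.8, 17.5 and 17.6 FPKM with it. The TVA libraries were almost identical, and the rise was 1.24-fold (log2 difference 0.29, SE 0.03, limma adjusted p = 0.000419). Rb1 was at 8.21, 7.58 and 7.54 FPKM without TVA and 9.46, 9.70 and 7.76 FPKM with TVA. Replicate 3 of siNTC plus TVA lay within the siNTC range, and the difference of 0.18 (95% interval 0.02 to 0.34) was not called (limma adjusted p = 0.181). Without that library it was 0.27 and was called (limma adjusted p = 0.0191). Rbl2 was at 13.4, 12.9 and 12.9 FPKM without TVA and 13.1, 13.2 and 14.4 FPKM with TVA, which overlapped (log2 difference 0.05, 95% interval -0.04 to 0.14, limma adjusted p = 0.555). Rb1 shares 24171 bases with Rcbtb2 and 5400 bases with Lpar6 on the opposite strand, and Rbl2 shares 12061 bases with Aktip. These neighbours were expressed at means of 5.46, 9.37 and 2.12 FPKM, and whether counting used strand is not given in the sources used here, so reads of Rb1 and Rbl2 cannot be told apart from theirs where the transcripts overlap.

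In siCreb1 cells 0 of the 10 genes were called for TVA against DMSO with limma, where 0.537% of all genes tested were called in either direction. E2f2 and E2f8 had an unadjusted p under 0.05 (0.00395 and 0.00222), and limma-voom on recovered reads called 1 gene, E2f8. E2f8 was at 5.40, 5.50 and 5.65 FPKM in siCreb1 cells and 6.65, 6.69 and 6.25 FPKM in siCreb1 plus TVA cells, a log2 difference of 0.21 (95% interval 0.09 to 0.32, limma adjusted p = 0.171). E2f2 was at 28.9, 29.98 and 30.4 FPKM and then 32.6, 31.6 and 31.3 FPKM, a log2 difference of 0.10 (95% interval 0.04 to 0.15, limma adjusted p = 0.214). In both genes every TVA library was above every library without it, by a smaller step than in siNTC cells. E2f7 also did not overlap, at 1.74, 1.54 and 1.75 FPKM without TVA and 1.91, 2.04 and 1.80 FPKM with it (log2 difference 0.12, limma adjusted p = 0.665). Rbl1 went the other way, from 16.9, 16.6 and 16.4 FPKM to 15.8, 15.7 and 16.2 FPKM, also with no overlap (log2 difference -0.06, limma adjusted p = 0.657). These 4 of 10 genes without overlap compare with 17.1% of all genes tested. E2f1 overlapped, at 6.76, 8.06 and 7.67 FPKM in siCreb1 cells and 7.07, 7.46 and 7.26 FPKM with TVA (95% interval -0.21 to 0.14, limma adjusted p = 0.931).

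The difference between the TVA responses was tested directly, as the interaction of TVA and siCreb1. It was called for 3 of the 10 genes, all of them with a smaller TVA response in siCreb1 cells, where 1.78% of all genes tested were called in that direction. The interaction was -0.45 on the log2 scale for E2f8 (SE 0.07, limma adjusted p = 0.00933), -0.35 for Rbl1 (SE 0.05, limma adjusted p = 0.00432) and -0.30 for E2f2 (SE 0.04, limma adjusted p = 0.00254). E2f1 and E2f7 had estimates of the same order, at -0.43 (95% interval -0.67 to -0.18, limma adjusted p = 0.0855) and -0.36 (95% interval -0.59 to -0.13, limma adjusted p = 0.123), and were not called. Both were called with limma-voom on recovered reads (-0.49, adjusted p = 0.0257, and -0.62, adjusted p = 0.0142). Without siNTC replicate 3, E2f1 was also called (-0.49, limma adjusted p = 0.0499), and without the mean-variance trend E2f7 was called (-0.36, limma adjusted p = 0.0494). The median interaction of the 10 genes was -0.21, against 0.002 over all genes tested.

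**Figure D2:**
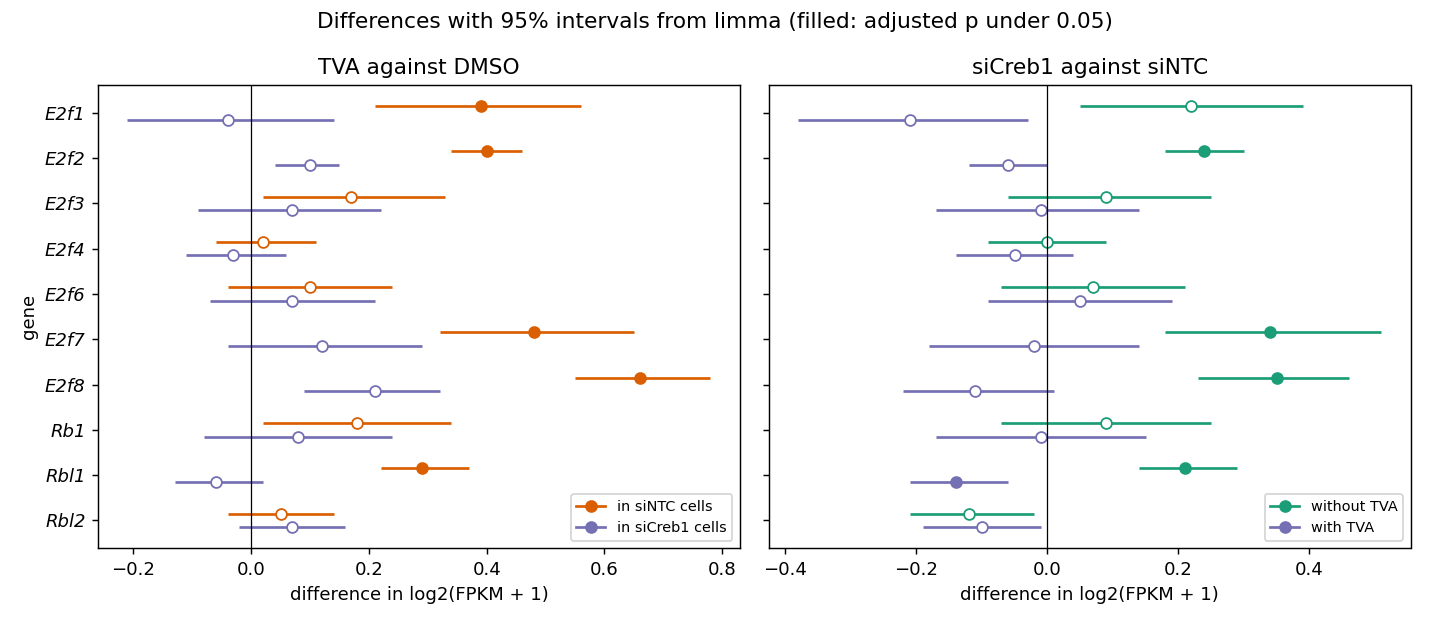
Differences in log2(FPKM + 1) with 95% intervals from limma for the 10 genes, TVA against DMSO in siNTC and siCreb1 cells (left) and siCreb1 against siNTC without and with TVA (right). Filled points passed an adjusted p of 0.05. On the left 5 points are filled for siNTC cells and 0 for siCreb1 cells, and on the right 4 without TVA and 1 with TVA.

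Knockdown of Creb1 without TVA also raised members of the family. Against siNTC, siCreb1 cells had higher E2f2, E2f7, E2f8 and Rbl1, 4 of the 10 genes, where 6.52% of all genes tested were called higher. This comparison, that of TVA in siNTC cells and the interaction share the siNTC libraries, so a low siNTC value would enter each of them. The rises were 1.51-fold for E2f7 (log2 difference 0.34, SE 0.07, limma adjusted p = 0.0127), 1.34-fold for E2f8 (0.35, SE 0.05, limma adjusted p = 0.00217), 1.19-fold for E2f2 (0.24, SE 0.03, limma adjusted p = 0.000343) and 1.17-fold for Rbl1 (0.21, SE 0.03, limma adjusted p = 0.00307). On recovered reads the E2f7 difference was 0.61 (limma-voom adjusted p = 0.000516). Fitted on the 6 libraries compared alone, E2f7 was not called (0.34, limma adjusted p = 0.0602). E2f1 was 1.19-fold higher with overlapping libraries and was not called (log2 difference 0.22, limma adjusted p = 0.0923). It was called with limma-voom (0.28, adjusted p = 0.0426) and without siNTC replicate 3 (0.29, limma adjusted p = 0.0441).

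Rbl2 was the one member whose siCreb1 libraries lay wholly below the siNTC libraries, at 12.5, 11.5 and 12.02 FPKM against 13.4, 12.9 and 12.9 FPKM. The log2 difference of -0.12 was not called (limma unadjusted p = 0.0179, adjusted p = 0.092). Together with the 4 genes that rose, 5 of 10 genes had no overlap, where 31.5% of all genes tested had none. Rb1 was at 7.93, 8.53 and 8.54 FPKM in siCreb1 cells (adjusted p = 0.47 with limma), and overlapped its siNTC values. E2f3 was at 4.16, 5.12 and 4.77 FPKM, E2f4 at 48.2, 49.4 and 50.03 FPKM and E2f6 at 5.84, 5.52 and 5.98 FPKM in siCreb1 cells. All 3 overlapped siNTC cells, with limma adjusted p of 0.417, 0.983 and 0.494.

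With TVA present, siCreb1 cells had 0 of the 10 genes called higher than siNTC cells with limma, at an unadjusted p under 0.05 or with limma-voom. Limma called 4.64% of all genes tested higher here, so 0 of 10 is near the background. Rbl1 was the only gene of the 10 called, and it was lower, at 15.8, 15.7 and 16.2 FPKM against 17.8, 17.5 and 17.6 FPKM (log2 difference -0.14, SE 0.03, limma adjusted p = 0.0298). In this comparison 5.51% of all genes tested were called lower, so 1 of 10 is near the background as well. The Rbl1 call did not hold throughout. It was lost on leaving out any 1 of the 6 libraries compared (limma adjusted p of 0.054 to 0.0941), with all genes above 0, after quantile normalization and in TPM, the difference staying between -0.15 and -0.09. Libraries of E2f1, E2f2, E2f8, Rbl1 and Rbl2 lay wholly below those of siNTC plus TVA, 5 of 10 genes, where 31.8% of all genes tested had no overlap. The estimates were -0.21 for E2f1 (limma adjusted p = 0.124), -0.06 for E2f2 (0.165), -0.11 for E2f8 (0.224) and -0.10 for Rbl2 (0.167). E2f1 was called only when the 6 libraries were fitted alone (-0.21, limma adjusted p = 0.0419). E2f3, E2f4, E2f6 and Rb1, at 4.84 to 5.07, 46.3 to 49.5, 5.89 to 6.41 and 8.38 to 9.21 FPKM in siCreb1 plus TVA cells, overlapped siNTC plus TVA cells, as did E2f7.

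Reading each gene over all 4 groups, the libraries of E2f2, E2f8 and Rbl1 fell into 4 ranges with no overlap, 3 of 10 genes against 0.996% of all genes tested. For E2f2 and E2f8 the order was siNTC, siCreb1, siCreb1 plus TVA and siNTC plus TVA, from low to high. For Rbl1 the siCreb1 groups changed places, so that siCreb1 plus TVA came right after siNTC. E2f7 had siNTC lowest and siCreb1 next, with both TVA groups overlapping at the top.

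The class sums show how the balance within the family moved. The activators summed to 35.6 ± 0.994 FPKM (SD, n = 3) in siNTC cells, 46.8 ± 0.943 with TVA, 41.9 ± 1.84 in siCreb1 cells and 44.1 ± 0.424 in siCreb1 plus TVA cells. The atypical E2Fs summed to 5.24 ± 0.169, 9.07 ± 0.394, 7.19 ± 0.187 and 8.45 ± 0.349 FPKM in the same order. The repressors stayed at 54.45 to 56.02 FPKM on average, and all groups overlapped. The pocket proteins summed to 35.1 ± 0.176, 40.2 ± 0.327, 36.9 ± 0.382 and 37.4 ± 0.177 FPKM. The ratio of activators to pocket proteins was 1.02 ± 0.0246 in siNTC cells and 1.14 to 1.18 on average in the other 3 groups, all of whose libraries lay above the siNTC libraries. The ratio of Rbl1 to Rbl2 was 1.09 ± 0.0775 in siNTC cells, 1.301 ± 0.0712 with TVA, 1.39 ± 0.0493 in siCreb1 cells and 1.26 ± 0.0249 in siCreb1 plus TVA cells. These sums were not tested, since the genes were grouped with their values known.

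**Figure D3:**
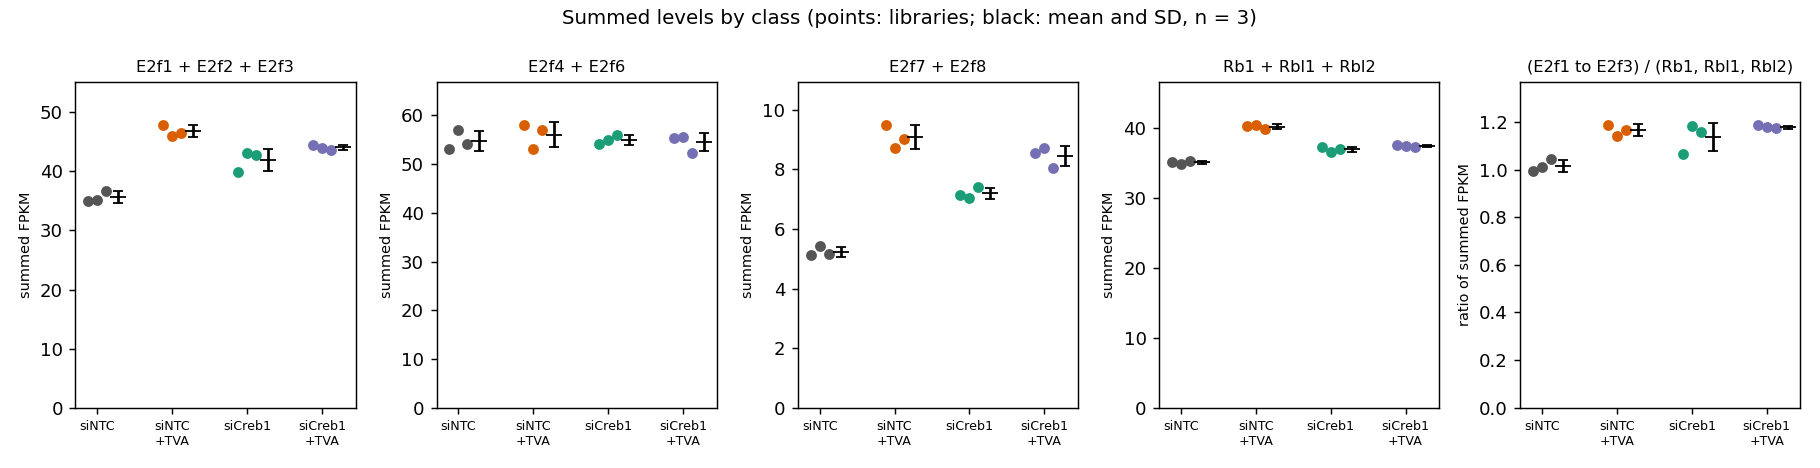
Summed FPKM of the activators, repressors, atypical E2Fs and pocket proteins, and the ratio of activators to pocket proteins, in the 12 libraries on linear axes from 0. Points are libraries and black marks the mean and SD of 3 libraries. Activators, atypical E2Fs, pocket proteins and the ratio are lowest in siNTC cells, and the repressor sums overlap in all 4 groups.

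Some partners of the family were called as well. Of 11 DP and MuvB partners (E2f5, Tfdp1, Tfdp2, Lin9, Lin37, Lin52, Lin54, Rbbp4, Mybl1, Mybl2 and Foxm1), 5 were called higher with TVA in siNTC cells and 0 lower, with a median of 0.16, where 4.49% of all genes tested were called higher. They included Mybl2, which encodes the B-MYB subunit of the MuvB activator complex (log2 difference 0.58, limma adjusted p = 0.000688), Foxm1, the G2/M transcription factor (0.55, limma adjusted p = 0.00022), Mybl1 (0.38, limma adjusted p = 0.0388) and Tfdp1, which encodes the DP1 partner of E2Fs (0.25, limma adjusted p = 0.00351). In siCreb1 cells 0 of 11 were called for TVA with limma or limma-voom, where limma called 0.537% of all genes tested in either direction. An unadjusted p under 0.05 was found for 2. The 4 with the smallest p, Mybl2, Lin9, Mybl1 and Foxm1, had differences of 0.08 to 0.22. siCreb1 without TVA raised 3 of the 11, Mybl2 (0.45), Foxm1 (0.37) and Mybl1 (0.36), where 6.52% of all genes tested were higher. With TVA 1 of 11 was lower, Rbbp4, a histone chaperone shared by many chromatin complexes (-0.18, limma adjusted p = 0.00623), where 5.51% of all genes tested were lower, so this count is near the background. The interaction was called lower for 2, where 1.78% of all genes tested were, Foxm1 (-0.47, limma adjusted p = 0.0134) and Rbbp4 (-0.19, limma adjusted p = 0.0497).

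The 10 partners of E2F6 in its Polycomb complex (Pcgf6, L3mbtl2, Mga, Max, Rnf2, Ring1, Rybp, Yaf2, Wdr5 and Cbx3) showed few calls. E2f6 itself was called in no comparison. With TVA in siNTC cells 1 was called lower, Rybp (-0.24, limma adjusted p = 0.0195), where 2.88% of all genes tested were called lower. Limma-voom also called 1 partner higher there, where it called 660 of 11550 genes higher. siCreb1 without TVA gave 1 lower, Yaf2, a paralogue of Rybp (-0.22, limma adjusted p = 0.0334), where 7.21% were called lower, so this count is near the background. In the remaining comparisons and the interaction 0 of 10 were called with limma or limma-voom, with an unadjusted p under 0.05 for 0 of 10 in both comparisons and 2 of 10 in the interaction, and the median of the 10 lay between -0.06 and 0.03 in every comparison.

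The kinases that phosphorylate pocket proteins, with their cyclins and inhibitors, were listed as 13 genes, of which 12 passed the filter on low values. In siNTC cells TVA raised 5 and lowered 1, with a median of 0.16, where 4.49% of all genes tested were higher and 2.88% lower. Ccna2 (0.53, limma adjusted p = 5.61e-05) and Ccne2 (0.48, limma adjusted p = 0.00116) encode the cyclins of S phase entry, Cdk2 (0.31, limma adjusted p = 0.000538) is their kinase, and Cdkn2c (0.42, limma adjusted p = 0.000872) encodes p18, an inhibitor of CDK4 and CDK6. In siCreb1 cells 0 of 12 were called for TVA with limma or limma-voom, where limma called 0.537% of all genes tested in either direction. An unadjusted limma p under 0.05 was found for 1, Cdkn1a (-0.29, limma adjusted p = 0.235). siCreb1 without TVA raised 5 of 12, with Cdk6 in front (0.49, limma adjusted p = 0.000103), where 6.52% of all genes tested were higher. It lowered 1 of 12, which is near the 7.21% of all genes tested that were lower. With TVA, 1 was higher, Cdk6 (0.18, limma adjusted p = 0.0244), where 4.64% of all genes tested were called higher. Against 5.51% of all genes tested, 3 were lower. These were Cdkn1a, which encodes the CDK inhibitor p21 (-0.42, limma adjusted p = 0.012), Cdkn2c (-0.26) and Ccna2 (-0.18). The interaction was called lower for 3, against 1.78% of all genes tested, and these were Cdkn2c (-0.49), Ccna2 (-0.44) and Cdk6 (-0.30).

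A list of 56 G1/S genes commonly held to be under E2F control was examined next. It was drawn up with earlier results of these data known. Of the 56 genes, 47 were called higher with TVA in siNTC cells, against 4.49% of all genes tested, and 0 lower. The median of the 56 was 0.43. The largest rises on the list were in Clspn, a replication checkpoint adaptor (0.76, limma adjusted p = 1.81e-05), and Hells, a chromatin remodeller (0.72). Next were Rad51ap1, a DNA repair factor (0.70), and Rrm2, a subunit of ribonucleotide reductase (0.70, limma adjusted p = 6.51e-07). In siCreb1 cells 1 of 56 was called for TVA, where 0.537% of all genes tested were called in either direction. It was Asf1b, a histone chaperone (0.18, limma adjusted p = 0.0424). The median was 0.05, 11 of 56 had an unadjusted limma p under 0.05, and limma-voom called 4. siCreb1 without TVA raised 40 of 56, against 6.52% of all genes tested, and lowered 0, with a median of 0.27. The rises were led by Clspn (0.59), Rad51ap1 (0.51), Uhrf1 (0.48) and Prim1 (0.47). With TVA, siCreb1 cells had 0 higher and 11 lower, where 5.51% of all genes tested were called lower, with a median of -0.10. The lowest was Cdt1, a replication licensing factor (-0.31, limma adjusted p = 0.00785), before Pcna (-0.20) and Rrm2 (-0.18). The interaction was called lower for 32 of 56, against 1.78% of all genes tested, with Rad51ap1 at -0.73, Clspn at -0.72, Orc6 at -0.59 and Cdc45 at -0.59.

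The second list, drawn up in the same way, held 28 G2/M genes commonly held to be bound by the MuvB complex. With TVA in siNTC cells 27 were called higher, against 4.49% of all genes tested, and 0 lower (median 0.42). Bub1, a spindle checkpoint kinase, was at 0.68, Top2a at 0.65 and Kif11, a spindle motor, at 0.64. Mki67, which encodes Ki-67, was at 0.56 (limma adjusted p = 1.83e-06). In siCreb1 cells 0 of 28 were called with limma or limma-voom (median 0.03), where limma called 0.537% of all genes tested in either direction. At an unadjusted limma p under 0.05, 4 were higher and 1 lower, the smallest p belonging to Kif23 (0.12, adjusted p = 0.368). siCreb1 without TVA raised 21, against 6.52% of all genes tested, and lowered 0 (median 0.25). Those raised included Top2a (0.44), Mki67 (0.43), Bub1 (0.43) and Kif11 (0.40). With TVA 10 were lower, against 5.51% of all genes tested, and 0 higher (median -0.17). Cdc20, the activator of the anaphase-promoting complex, was at -0.34, Cdk1 at -0.27, Aurkb at -0.23 and Ube2c at -0.23. The interaction was called lower for 21, against 1.78% of all genes tested, with Bub1 at -0.63, Aurkb at -0.61, Top2a at -0.58 and Kif11 at -0.57.

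**Figure D4:**
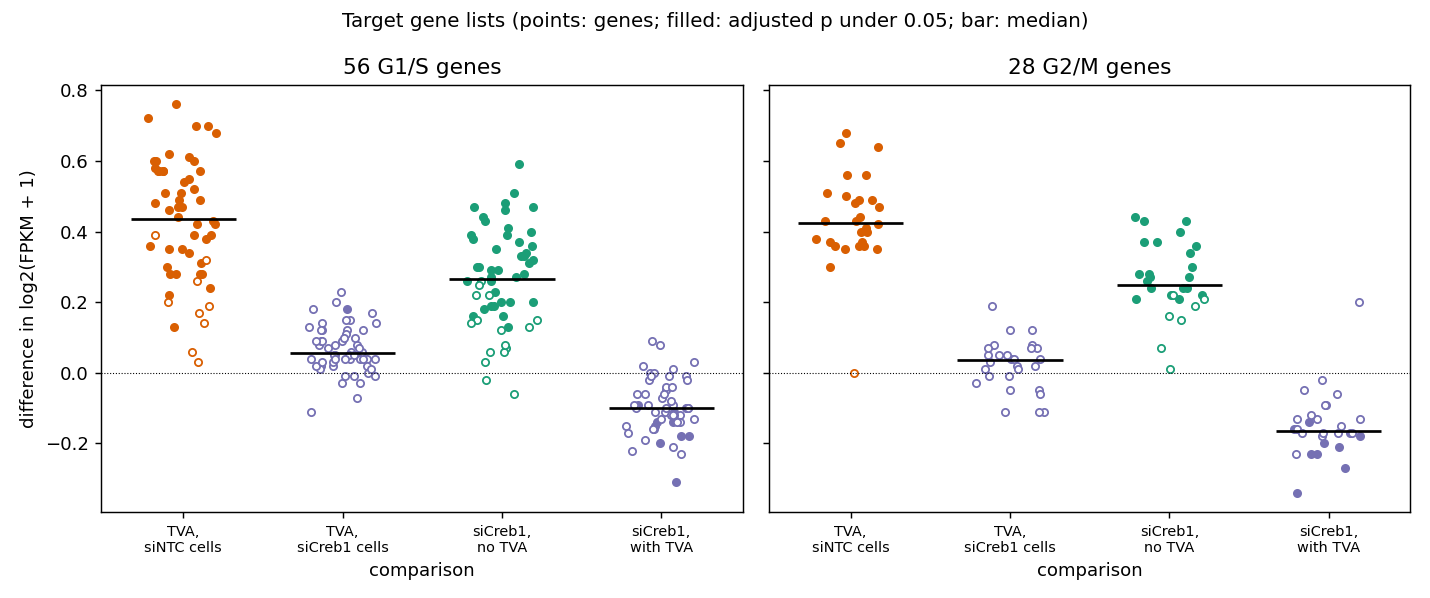
Differences in log2(FPKM + 1) of 56 G1/S and 28 G2/M target genes in 4 comparisons. Each point is a gene, filled where the adjusted p from limma was under 0.05, and bars are medians. Medians are 0.43 and 0.42 for TVA in siNTC cells, 0.05 and 0.03 for TVA in siCreb1 cells, 0.27 and 0.25 for siCreb1 without TVA, and -0.10 and -0.17 for siCreb1 with TVA.

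The split of all genes called for siCreb1 depends on the scaling. Without TVA 753 genes were higher and 833 lower in FPKM, 748 and 637 after quantile normalization, and 908 and 297 in TPM. With TVA 536 were higher and 636 lower in FPKM, 595 and 335 after quantile normalization, and 620 and 120 in TPM. For TVA in siNTC cells 519 were higher and 333 lower in FPKM, and 402 and 154 in TPM. The 4 members raised by siCreb1 and the 5 raised by TVA had the same calls under both scalings.

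Over the 12 libraries, the 5 members called in siNTC cells (E2f1, E2f2, E2f7, E2f8 and Rbl1) had pairwise correlations of 0.68 to 0.98 in log2(FPKM + 1) over 10 pairs. Some uncalled members lay in the same range with them, such as E2f3 with E2f1 (0.80) and E2f2 (0.74), and Rb1 with E2f8 (0.71) and E2f2 (0.70). These are descriptions over libraries that share treatments. The genes most like E2f2 were Spag5 (r = 0.986), Rrm2 (0.98) and Ezh2 (0.979), and those most like E2f8 were Spag5 (0.982), E2f2 itself (0.979) and Asf1b (0.973). Rbl1 was most like Mcm7 (0.964), Orc6 (0.964) and Cdc45 (0.962), which act in replication origin licensing and firing. E2f1 was most like Rbbp7 (0.965), Gmnn (0.951) and Nek2 (0.946), and E2f7 most like Nucks1 (0.969). The uncalled members had other neighbours, Eomes for E2f3 (0.925), Cuta for E2f4 (0.858), Rubcn for E2f6 (0.87), Platr25 for Rb1 (0.908) and Ulk2 for Rbl2 (0.924).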

How the data were processed

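RNA-seq of 12 libraries of mouse primary CD8+ T cells was analysed. The authors deposited FPKM values for 54532 genes per library, reads scaled by gene length and library size. The genome builds in the submitters' processing notes are GRCm38 and mm10. The aligner, counter, annotation release and strand setting are not given in the sources used here. FPKM times length was a whole number of reads (tolerance 0.05) for at least 99.995% of genes above 0, giving 16660234 to 24602484 reads per library. The library size used in FPKM, over the sum of recovered reads, was 0.9866 to 0.9989 in siNTC libraries. It was 1.013 to 1.017 in siCreb1 plus TVA libraries and 0.9987 to 1.007 in the other groups. FPKM carries this difference between groups. Averaged over genes, replicate pairs differed by 3.54 to 5.29 times the counting variance. This mean does not give the share of counting error in a single member, where depth can limit the precision too. Samples were grouped by their labels.

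Genes averaging 1 FPKM or more over the libraries (11550) were fitted on log2(FPKM + 1) with limma 3.58.1 (R 4.3.3, eBayes with trend) in 1 fit of 4 groups. P-values are two-sided and Benjamini-Hochberg adjusted over the genes tested (threshold 0.05). An exact permutation test of 3 against 3 libraries was not used, since it cannot reach the threshold. The fit was tested on simulated data. Each of these was tried in its place, adding 0.1 in place of 1, taking all genes above 0 or those averaging 5 FPKM or more, quantile normalization, TPM, a replicate block, no trend, limma-voom on the recovered reads, fitting the 6 libraries compared alone, and leaving out each library. Summaries and plots used Python 3.11.15 and matplotlib 3.10.9. All promoter sequences are RefSeq's (GRCm38.p6), and gene positions match GENCODE vM21.

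The members and lists were chosen with earlier results of these data known. The text names all members, Creb1, per list and comparison up to 4 called genes with the largest change (or, with none called, smallest p), and the genes with the highest Pearson correlation to each member. The value of 1 gene that this rule names is not reported here.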

Additional observations from a re-analysis of the deposited data

Results flagged for a closer look

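In 3 genes the response to TVA differed between siNTC and siCreb1 cells in a test of that difference itself. The interaction was -0.45 on the log2 scale for E2f8, -0.30 for E2f2 and -0.35 for Rbl1, each with a limma adjusted p under 0.05. In E2f2 and E2f8 the response was smaller in siCreb1 cells and kept its sign. In Rbl1 the estimate in siCreb1 cells was -0.06 against 0.29 in siNTC cells. Without TVA, siCreb1 cells were already above siNTC cells, by 0.24 for E2f2, 0.35 for E2f8 and 0.21 for Rbl1. With TVA, siCreb1 cells differed from siNTC cells by -0.06, -0.11 and -0.14 in the same order. What sets the smaller response was not tested.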

How the results depend on the processing

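The counts of called members were 5 (TVA in siNTC cells), 0 (TVA in siCreb1 cells), 4 (siCreb1 without TVA), 1 (siCreb1 with TVA) and 3 (interaction). Leaving out each library gave 5 to 6, 0 to 0, 4 to 5, 0 to 1 and 3 to 4. Limma-voom on recovered reads gave 1 for TVA in siCreb1 cells (E2f8) and 5 for the interaction (E2f1 and E2f7 added). For siCreb1 with TVA the count was 0 with all genes above 0, quantile normalization and TPM, and 2 with the 6 libraries alone (E2f1 added). A mean FPKM of at least 5 removed E2f3 and E2f7 from the test. Same-numbered libraries did not deviate together (18 correlations of -0.0593 to 0.0595), so a number is only a name. With the replicate block the counts were 5, 0, 4, 0 and 3, and the block lost only Rbl1 for siCreb1 with TVA (adjusted p = 0.0517). Of the values per member and alternative, 985 kept direction and call, 12 lost and 9 gained a call, and 24 changed sign. All of the last were uncalled and near 0. For siCreb1 without TVA, E2f4 was 0.032 with quantile normalization, 0.045 in TPM and 0.021 with limma-voom. For siCreb1 with TVA, TPM gave 0.033 for E2f3, 0.001 for E2f4, 0.02 for E2f7 and 0.036 for Rb1, and limma-voom 0.001 for E2f3 and 0.017 for Rb1. On leaving out a library, E2f4 ran from -0.001 to 0.058 with TVA in siNTC cells, and E2f1 from -0.101 to 0.01, E2f3 from -0.002 to 0.121 and E2f4 from -0.043 to 0.005 with TVA in siCreb1 cells. For siCreb1 without TVA E2f4 ran from -0.026 to 0.027. With TVA E2f3 ran from -0.032 to 0.015, E2f7 from -0.067 to 0.034 and Rb1 from -0.105 to 0.039. The interactions of E2f6 and Rbl2 ran from -0.071 to 0.048 and from -0.01 to 0.061. The cause was not tested. At 172 to 459 reads per library, E2f7 had the fewest reads of the members.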

Other observations

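E2f5, the remaining E2F gene, was listed above with the DP and MuvB partners and is not in the repressor sums. Its values are given here after they were seen. E2f5 was at 5.51, 8.19 and 6.71 FPKM in siNTC cells and 8.72, 4.86 and 6.68 FPKM with TVA. It was at 6.79, 4.75 and 5.20 FPKM in siCreb1 cells and 6.15, 5.52 and 5.69 FPKM in siCreb1 plus TVA cells. All 4 groups overlapped, and the SD within a group ran from 0.328 FPKM in siCreb1 plus TVA cells to 1.93 FPKM in siNTC plus TVA cells.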
